A study of Mus musculus with 10 samples.

Results

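The clustered protocadherins are neural cell adhesion molecules encoded side by side on one chromosome. Their members were taken from the count table as protein-coding rows named Pcdha, Pcdhb or Pcdhg with a number, and the rule found 24 of the table's 35275 rows. These were 1 row of the alpha cluster, 22 rows of the beta cluster and 1 row of the gamma cluster. RNA came from retinas of C57BL/6 mice, 10 to 12 weeks old, in 5 vehicle libraries and 5 libraries from mice that received vigabatrin, 140 mg/kg/day, for 11 days from a subcutaneous osmotic pump. Vigabatrin is an antiepileptic drug that blocks GABA transaminase. The control libraries are labelled vehicle in their treatment field and untreated in their titles, and the labels give no genotype beyond the strain. Libraries are named here by group and title number, and since no label ties each one to a separate animal, the spread between them may be in part technical.

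Clustered protocadherins form assemblies on the neuronal surface that bind only matching assemblies on other membranes, and the isoforms a neuron makes give it an identity of its own. In the alpha and gamma clusters many alternative first exons, each with its own promoter, are spliced to a set of constant exons, whereas each beta gene is a single exon with no constant part. Most isoforms are chosen neuron by neuron through promoter choice that depends on the factor CTCF, on cohesin and on DNA methylation. In the retina the gamma cluster is known for self-avoidance of the dendrites of starburst amacrine cells and for the survival of some interneurons and ganglion cells.

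Total counts per library ranged from 36056135 to 54052502, and 17435 genes passed the filter on low counts, all 24 members among them. Values are CPM, counts relative to the size of each library, which was scaled by the trimmed mean of M-values. Amacrine markers summed to between 1055 and 1127 CPM and ganglion cell markers to between 559 and 670 CPM, and every marker on both lists was detected in each library. Lens markers exceeded 1000 CPM in 4 libraries (vehicle 835 and 1582, vigabatrin 2344 and 2429) and lay between 2.29 and 659 CPM in the other 6. In retina as a bulk tissue, fewer cells of a type and less RNA per cell cannot be told apart.

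The alpha and gamma isoforms could not be read one by one. The alpha row, listed under the symbol Pcdha10 (ENSMUSG00000007440), runs from 36930285 to 37187657 on the plus strand of chromosome 18 in mm10, and spans all 14 alpha genes of the GENCODE M21 annotation. In those 14 genes 2860 exonic bases are common to all. The gamma row, listed under Pcdhga12 (ENSMUSG00000023036), runs from 37674335 to 37841873 on the plus strand and spans 20 of the 22 gamma genes of GENCODE M21. The other 2, Pcdhga1 and Pcdhga2, start upstream of it, and 2116 exonic bases are common to the 20 genes within it. GENCODE M21 gives these identifiers the symbols Pcdha11 and Pcdhgc4, so the symbols in the table do not name the isoform whose reads were counted. Both rows are therefore described as the alpha row and the gamma row. The C-type isoforms Pcdhac1, Pcdhac2, Pcdhgc3, Pcdhgc4 and Pcdhgc5, several of which are known to be made more uniformly across neurons than the other isoforms, have no value of their own here. All 22 beta rows are single exons, none overlaps another row of the table, and they lie in numerical order from the start of Pcdhb1 at 37264998 to the end of Pcdhb22 at 37521419 on the plus strand.

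In CPM, with no correction for length, the gamma row lay above the summed beta genes in every library, and the alpha row was the lowest. Alpha levels in the vehicle libraries 832, 835, 1580, 1582 and 2345 were 108, 104, 100, 102 and 105 CPM. In the vigabatrin libraries 2344, 2347, 2349, 2428 and 2429 they were 99.1, 114, 110, 109 and 102 CPM. Vigabatrin 2344 was thus the lowest and vigabatrin 2347 the highest library for alpha, and the groups overlapped. The summed beta genes gave 188, 183, 194, 188 and 204 CPM in vehicle and 196, 194, 206, 200 and 193 CPM after vigabatrin, in the same order of libraries. Vehicle 835 was the lowest for beta and vigabatrin 2349 the highest, just above vehicle 2345. The gamma row gave 412, 452, 408, 394 and 425 CPM in vehicle and 446, 448, 437, 420 and 412 CPM after vigabatrin. Vehicle libraries were both the lowest (1582) and the highest (835) for gamma, so the vigabatrin values lay inside the vehicle range.

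**Figure D1:**
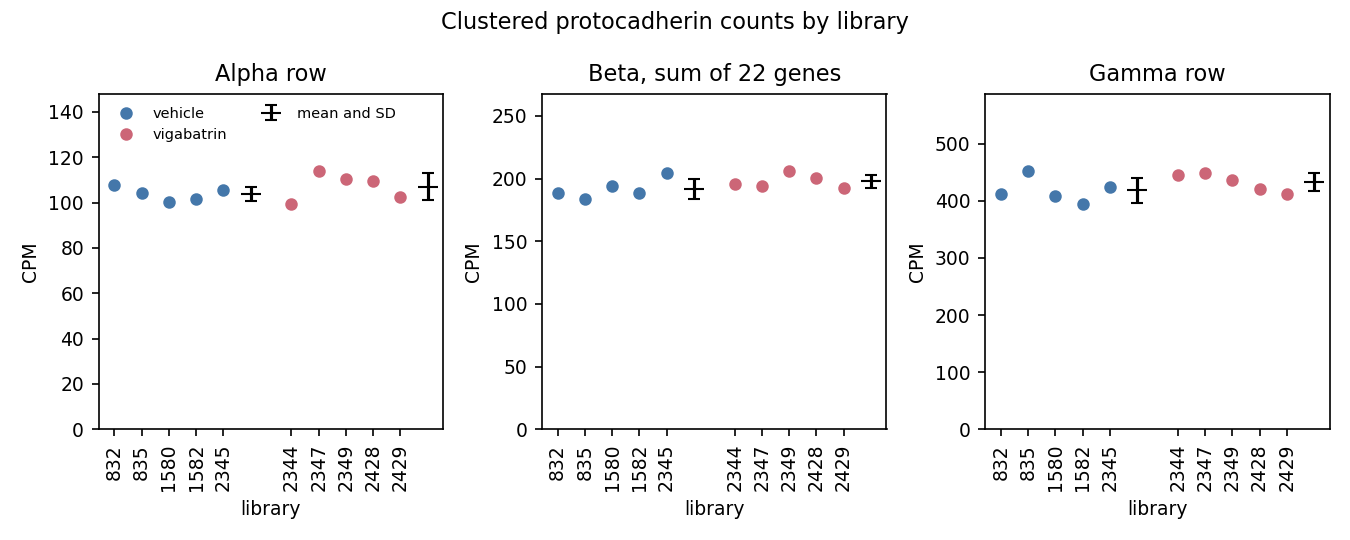
CPM of the alpha row, the 22 summed beta genes and the gamma row in each library, with axes from 0; points are libraries, and black marks are the mean and SD of 5 libraries. Alpha stays between 99.1 and 114 CPM, beta between 183 and 206 and gamma between 394 and 452, with both groups overlapping in each panel.

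Gamma reads exceeded alpha reads by a ratio of 4.03 ± 0.203 in vehicle and 4.05 ± 0.258 after vigabatrin (SD over 5 libraries per group), and beta reads by 2.19 ± 0.162 and 2.19 ± 0.0985. Of all member counts, the alpha row took 14.5% in both groups, the beta genes 26.9% in vehicle and 26.8% after vigabatrin, and the gamma row 58.6% and 58.7%. Among the protein-coding genes tested and ranked by CPM per kb of the deposited gene length, the gamma row stood at percentile 96.6 and the alpha row at 76.7, while the beta genes ran from 4.77 for Pcdhb1 to 49.7 for Pcdhb17. Per kb of deposited length the gamma row had 83.8 ± 3.87 CPM and the alpha row 19.4 ± 0.889 CPM (SD over 10 libraries). These 2 levels depend on which exons were counted: over all GENCODE M21 exons within each row, 65071 bases for gamma and 40755 for alpha, they fall to 6.54 and 2.59 CPM per kb. Each beta row is one exon of a single gene, so an isoform order is given for beta alone, and it too depends on the gene models for some genes.

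Per kb of deposited length the beta genes spanned a wide range of levels, with 4 genes above the rest in every library. The order of the top genes, and which of them lie above the gap, are given for this length, which is that of the deposited rows. Both change when GENCODE M21 lengths divide the same counts, as the values further on show. Pcdhb17 was the highest at 7.29 ± 0.418 CPM per kb (SD over 10 libraries), followed by Pcdhb20 at 6.70 ± 0.457, Pcdhb9 at 5.31 ± 0.408 and Pcdhb22 at 4.59 ± 0.297 CPM per kb. Pcdhb17 lay above Pcdhb20 in 9 of 10 libraries and their ranges overlapped. Pcdhb9 was the third and Pcdhb22 the fourth in all 10 libraries, although the ranges of neighbours in this order overlapped across libraries. Between Pcdhb22, whose lowest library had 4.11 CPM per kb, and Pcdhb14, whose highest had 3.51, there was a gap that no library crossed. These 4 genes held between 40.6% and 44.1% of the summed beta level per kb.

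Below the gap, 17 genes formed a graded series. Pcdhb14 (2.98 CPM per kb), Pcdhb12 (2.87), Pcdhb8 (2.59) and Pcdhb18 (2.56) came first. Pcdhb7, Pcdhb13, Pcdhb11, Pcdhb10, Pcdhb6 and Pcdhb3 followed between 2.13 and 1.97 CPM per kb and changed places from library to library. Pcdhb15 (1.59), Pcdhb16 (1.41), Pcdhb5 (1.34), Pcdhb4 (1.33), Pcdhb19 (1.26), Pcdhb21 (1.12) and Pcdhb2 (1.001) closed the series, and the ranges of each neighbouring pair from Pcdhb14 to Pcdhb2 overlapped.

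Pcdhb1 stood apart at the low end with 0.202 ± 0.0521 CPM per kb, and its highest library (0.311) lay below the lowest of Pcdhb2 (0.772). It had only 12 to 34 counts per library, so its value carries a counting error of 20.8% in a single library. Pcdhb1 is known to lack the conserved promoter element that most other clustered protocadherin genes share.

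**Figure D2:**
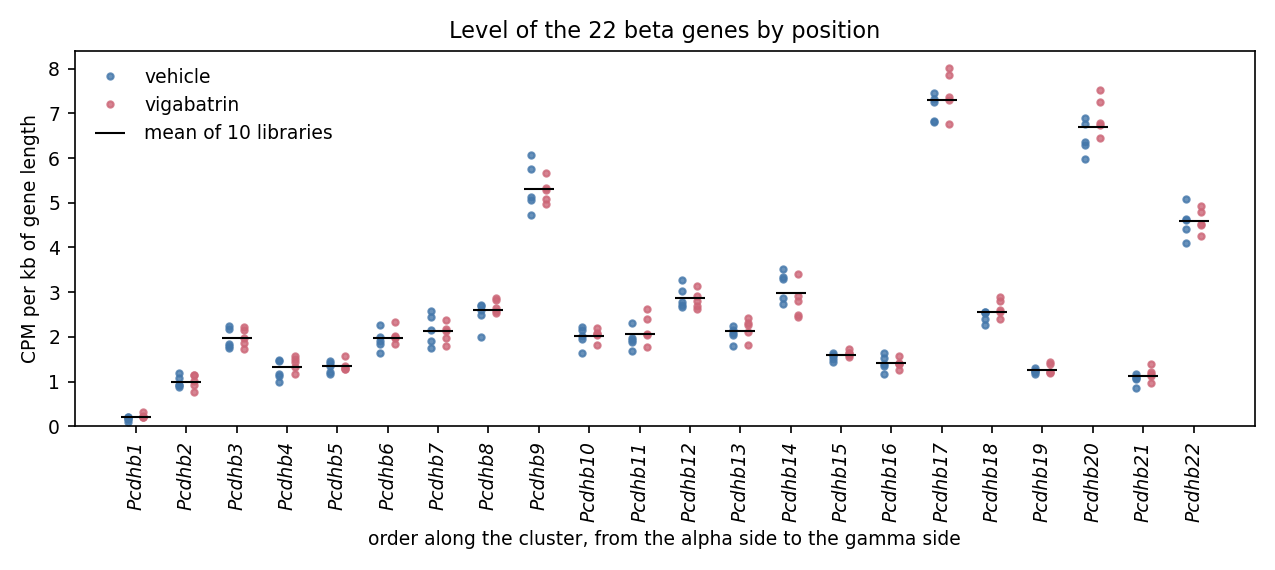
Level of each of the 22 beta genes in CPM per kb of deposited length, in chromosomal order from Pcdhb1 to Pcdhb22; points are libraries, coloured by group. Pcdhb17 and Pcdhb20 reach 7.29 and 6.70 CPM per kb, Pcdhb1 stays at 0.202, and both groups overlap for each gene.

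Level and position along the cluster were only loosely related. The first 7 beta genes had a median of 1.34 CPM per kb, the middle 8 (Pcdhb8 to Pcdhb15) 2.36, and the last 7 (Pcdhb16 to Pcdhb22) 2.56. Spearman's rank correlation between position and level was 0.40 over 22 genes and 0.32 without Pcdhb1, as a description over genes measured in the same libraries. High and low genes lay next to each other: Pcdhb20 (6.70) is followed by Pcdhb21 (1.12) and then Pcdhb22 (4.59). The rank correlation with level was -0.17 for deposited length and -0.14 for GC content. The GC content is that of the longest GENCODE M21 transcript, which differs in length from the deposited row for some genes. Those genes also share sequence, and reads that map equally well to several genes may be counted for none. The share of 50-base windows found elsewhere in the annotated transcripts was 0% for Pcdhb1 and at most 11.3% for the others (Pcdhb21, mainly shared with Pcdhb22), except Pcdhb12. In Pcdhb12 it was 64.2%, mainly with Gm37446, an antisense gene that GENCODE M21 places over it, and the strand setting of the counting is not known. With 100-base windows the shares were 7.73% for Pcdhb21, 5.47% for Pcdhb22, 62.3% for Pcdhb12 and at most 2.31% for the rest. Both window sizes include bases where annotated genes overlap at the same place. In GENCODE M21, 4250 of 4705 exonic bases of Pcdhb21 were free of other genes, 6154 of 6609 of Pcdhb22 and 1107 of 3034 of Pcdhb12. For these genes the shares therefore overstate repeated sequence, since a read from overlapped bases still maps to a single place. The rank correlation between the 50-base share, overlapped bases included, and level was 0.36. The part of repeated sequence in the levels was not tested.

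The top of the order changed with the length used. GENCODE M21 exons not shared with another gene were taken in place of the deposited length. Pcdhb17 then had 5.12, Pcdhb20 6.39, Pcdhb9 5.31 and Pcdhb22 2.29 CPM per kb. Pcdhb14 fell to 1.18, and Pcdhb12 rose to 7.86 because only 1107 of its bases are free of Gm37446. The counts stayed those of the deposited beta rows, none of which overlaps another row, so only the divisor changed. For Pcdhb12, 7.86 pairs reads of the whole 3034-base row with part of its length. The GENCODE M21 lengths of Pcdhb17 (4660), Pcdhb22 (6154) and Pcdhb14 (8695) exceed their rows (3269, 3067 and 3438 bases). With these divisors Pcdhb12 came highest and Pcdhb20 lay above Pcdhb17. Pcdhb22 came below Pcdhb18 (2.56), so that it left the top 4, and the step in level then lay between Pcdhb17 (5.12) and Pcdhb18. The rank correlation between both sets of beta levels was 0.80.

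The composition of the beta cluster was stable across libraries. The effective number of beta genes, the number of equally expressed genes that would give the same diversity, was 14.8 ± 0.302 in vehicle and 14.7 ± 0.560 after vigabatrin. Over all libraries it ran from 14.1 (vigabatrin 2429) to 15.4 (vigabatrin 2344). The 4 highest genes held 42.3% ± 1.10 of the beta level in vehicle and 42.4% ± 1.69 after vigabatrin. The rank correlation of the beta levels between the group means was 0.99, and over the 45 pairs of libraries it lay between 0.936 and 0.995.

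Vehicle and vigabatrin retinas were then compared gene by gene, to ask whether the drug was accompanied by a change in any clustered protocadherin. No member passed the threshold of an adjusted p of 0.05 (edgeR quasi-likelihood test, Benjamini-Hochberg adjustment over all tested genes): 0 of 24, where 0.00574% of all tested genes passed. At an unadjusted p under 0.05 the count was 0 of 24, against 7.36% of all tested genes. Likewise 0 of 24 members had vigabatrin libraries all above or all below the vehicle libraries, against 1.48% of all tested genes. DESeq2 also called 0 of 24 members, and 84 genes in all. The members' adjusted p-values ran from 0.724 to 0.999.

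The alpha row had 104 ± 2.95 CPM in vehicle and 107 ± 6.09 after vigabatrin (mean and SD over 5 libraries), a log2 fold change of 0.04 with a standard error of 0.04 (edgeR adjusted p = 0.869). Its 95% interval, from -0.05 to 0.14, leaves room for changes of at most 1.10-fold upward and 0.967-fold downward. The gamma row had 418 ± 21.99 and 433 ± 16.0 CPM, with a log2 fold change of 0.05, a standard error of 0.04 and an interval from -0.05 to 0.15 (edgeR adjusted p = 0.859). The summed beta genes had 192 ± 8.03 and 198 ± 5.50 CPM, a log2 ratio of 0.04 for which no test was made. For all members together the sums were 714 ± 23.3 and 737 ± 19.9 CPM. Which exons the alpha and gamma rows count is not known. A change confined to a single alpha or gamma isoform could be diluted or missed in them, and was not measurable here.

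Of the 24 members, 18 had higher and 6 lower fitted values after vigabatrin, which is 75%, beside 49.4% of all tested genes. Their median log2 fold change was 0.06, and that of all tested genes was -0.00. The count ran from 16 of 24 (without vehicle 1582 or without vigabatrin 2349) to 21 of 24 when single libraries were left out. With scaling by library size alone it was 20 of 24, beside 53.3% of all tested genes. Vehicle 2345 is the only control whose title number lies in the range of the vigabatrin libraries. With the range of title numbers as a term in the model, 12 of 24 members were higher, beside 53.1% of all tested genes. The median of the members was then -0.00. Without vehicle 2345, 21 of 24 were higher and the median was 0.07, and 39 genes in all passed the threshold, 0 of them members. What the number range stands for is not given in the labels, and its part in the result was not tested.

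**Figure D3:**
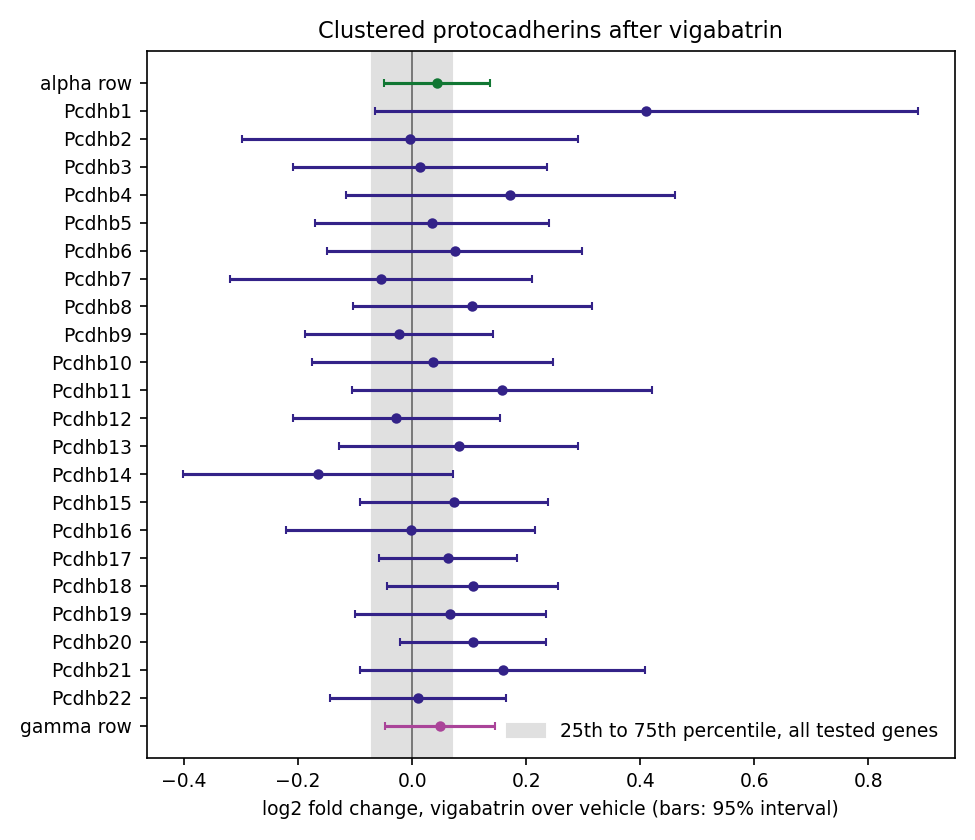
Log2 fold change of each member, vigabatrin over vehicle, with its 95% interval, from the alpha row through the beta genes to the gamma row; the shaded band runs from the 25th to the 75th percentile of all tested genes (-0.0713 to 0.0703). Every interval includes 0, and Pcdhb1 has the widest, from -0.07 to 0.89.

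Among the beta genes with higher values, Pcdhb1 had the smallest p. Its levels were 0.538, 0.403, 0.506, 0.264 and 0.414 CPM in vehicle and 0.763, 0.523, 0.558, 0.497 and 0.498 CPM after vigabatrin. Vigabatrin 2344 was the highest, and the remaining vigabatrin libraries lay within or just above the upper part of the vehicle range. This gave a log2 fold change of 0.41 (standard error 0.22, 95% interval from -0.07 to 0.89, edgeR adjusted p = 0.724), the least precise of all members. Its highest vigabatrin library (2344) and its lowest vehicle library (1582) are both rich in lens transcripts, and without the 4 lens-rich libraries the log2 fold change was 0.105 (adjusted p = 0.951).

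Pcdhb20, the second most abundant beta gene, had 21.6, 20.3, 23.0, 21.3 and 23.4 CPM in vehicle and 21.9, 22.9, 25.5, 24.6 and 23.0 CPM after vigabatrin. The 2 highest libraries were vigabatrin 2349 and 2428, and vehicle 2345 came next. This gave a log2 fold change of 0.11 (standard error 0.06, edgeR adjusted p = 0.733). Pcdhb18 went from 12.4 ± 0.623 to 13.4 ± 0.992 CPM (log2 fold change 0.11, edgeR adjusted p = 0.790), Pcdhb21 from 4.93 ± 0.548 to 5.49 ± 0.711 CPM (0.16, adjusted p = 0.801) and Pcdhb4 from 4.64 ± 0.798 to 5.23 ± 0.610 CPM (0.17, adjusted p = 0.820). Each of these 3 overlapped between groups. Leaving out 1 library took Pcdhb21 down to 0.09 (without vigabatrin 2349 or without vehicle 1580) and Pcdhb4 to 0.10 (without vehicle 2345). With the range of title numbers as a term, the log2 fold changes were 0.01 for Pcdhb20, 0.05 for Pcdhb18, 0.00 for Pcdhb21 and 0.50 for Pcdhb4.

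Pcdhb14 was the lowest on the fold-change scale. It had 9.41, 11.5, 9.83, 12.1 and 11.3 CPM in vehicle and 11.7, 8.42, 8.53, 10.0 and 9.64 CPM after vigabatrin. Vigabatrin 2347 and 2349 were the 2 lowest libraries, but vigabatrin 2344 was above 4 of the 5 vehicle libraries. This gave a log2 fold change of -0.16 (standard error 0.11, 95% interval from -0.40 to 0.07, edgeR adjusted p = 0.790). The other 5 genes with lower values were closer to 0: Pcdhb7 at -0.05, Pcdhb12 at -0.03, Pcdhb9 at -0.02, and Pcdhb16 and Pcdhb2 at -0.00, with edgeR adjusted p-values between 0.951 and 0.999.

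The remaining abundant beta genes overlapped between groups. Pcdhb17 had 22.3, 22.4, 24.4, 23.9 and 23.7 CPM in vehicle and 22.1, 24.1, 23.8, 26.2 and 25.7 CPM after vigabatrin. Its lowest and its highest library were both vigabatrin libraries (2344 and 2428), giving a log2 fold change of 0.06 (standard error 0.06, edgeR adjusted p = 0.851). Pcdhb9 had 15.5, 15.7, 17.6, 14.4 and 18.5 CPM in vehicle and 16.3, 17.3, 15.5, 16.1 and 15.2 CPM after vigabatrin, so that the vigabatrin values lay inside the vehicle range. Pcdhb22 had 12.6, 15.6, 14.3, 13.5 and 14.2 CPM in vehicle and 13.8, 14.7, 13.0, 13.9 and 15.1 CPM after vigabatrin, again inside the vehicle range, with a log2 fold change of 0.01 (edgeR adjusted p = 0.989). At the low end Pcdhb2 had 2.78 ± 0.349 CPM in vehicle and 2.77 ± 0.436 after vigabatrin.

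For 23 of the 24 members the 95% interval of the log2 fold change lay within 0.5 of 0 in both directions, Pcdhb1 being the exception. By chromosomal segment, 5 of the first 7, 5 of the middle 8 and 6 of the last 7 beta genes had higher values after vigabatrin, with median log2 fold changes of 0.04, 0.05 and 0.07. The extremes were spread over several libraries. Vigabatrin 2349 was the highest library for 7 members and vehicle 2345 for 5, while vehicle 835 was the lowest for 6 and vehicle 1580 and vehicle 1582 for 4 each.

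Member levels varied little between libraries. The coefficient of variation within a group, averaged over both groups, was 4.27% for the alpha row, 4.47% for the gamma row and 4.71% (Pcdhb15) to 22.5% (Pcdhb1) for the beta genes, with a median of 8.97% over the 24 members. Tested genes of similar mean level, 25% above a member or the same ratio below, had a median of 10.8%, and 18 of 24 members lay below the median of their own similar genes. Counting alone accounts for 0.712% in the gamma row, 1.43% in the alpha row and 20.8% in Pcdhb1. In Pcdhb1 the spread was thus close in size to the counting error.

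**Figure D4:**
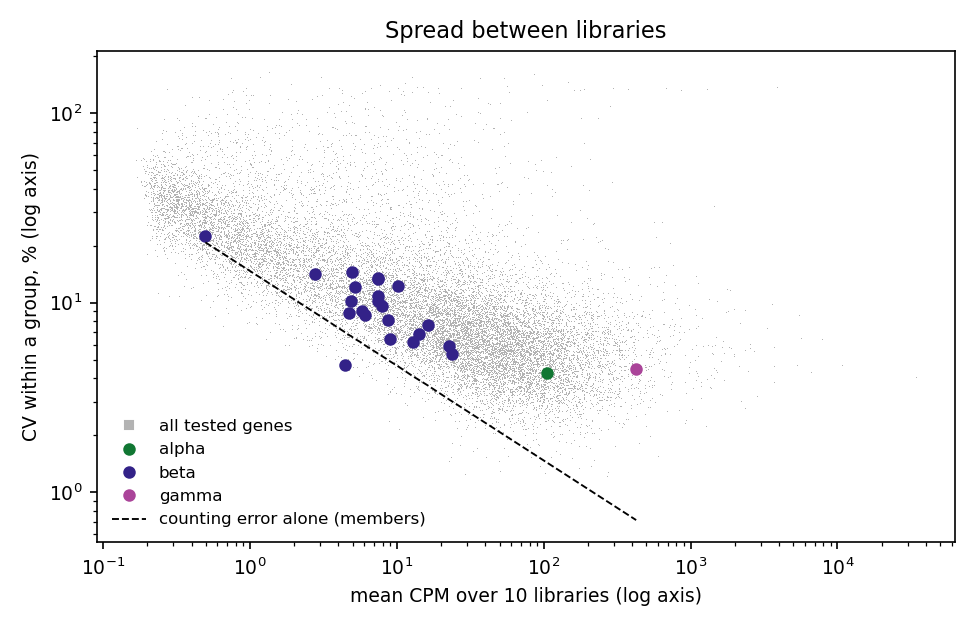
Coefficient of variation within groups of each member against its mean CPM on log axes, drawn over all tested genes in grey; the dashed line is the part that counting alone gives for the members. Pcdhb1 (22.5%) lies close to its counting error of 20.8%, and the alpha and gamma rows (4.27% and 4.47%) lie well above theirs.

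For the alpha row, the libraries rich in lens transcripts lay at the low end. It ranged from 99.1 to 104 CPM in these 4 libraries, below 5 of the other 6, which ranged from 100 to 114 CPM. Its log2 fold change was 0.09 without the lens-rich libraries, beside 0.04 with them (edgeR adjusted p = 0.686 without them). The beta sum ranged from 183 to 196 and from 188 to 206 CPM, and the gamma row from 394 to 452 and from 408 to 448 CPM, overlapping in both. The part of lens carry-over in these values was not tested. Without the lens-rich libraries 17 of 24 members were higher after vigabatrin, with a median of 0.06, and 0 were called.

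Other genes inside or between the clusters were low beside the alpha row, the gamma row and the beta sum. Taf7, Gm26672 and 3222401L13Rik nevertheless had more CPM than most single beta genes. Gm10544, a minus-strand noncoding RNA inside the alpha row, had 6.81 ± 1.56 CPM in vehicle and 7.55 ± 0.853 after vigabatrin. Gm26672, a minus-strand noncoding RNA inside the gamma row, had 13.6 ± 1.64 and 13.99 ± 0.840 CPM. Between the beta and gamma clusters lie Slc25a2, a mitochondrial ornithine carrier (0.591 and 0.557 CPM), Taf7, a subunit of the general transcription factor TFIID (15.9 and 16.9 CPM), and 3222401L13Rik (11.6 and 10.9 CPM). None of the 5 was called. Gm10545, a minus-strand gene inside the alpha row, was under the filter at 0.0739 and 0.125 CPM.

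Genes that regulate the clusters were compared from a list of 22, all of them tested and 0 called in either direction. Of these, 14 had higher and 8 lower values after vigabatrin, with a median log2 fold change of 0.01, and 2 had an unadjusted p under 0.05, where 7.36% of all tested genes did. Tet1, an enzyme that oxidises methylated cytosine, had 18.9 ± 1.61 CPM in vehicle and 21.5 ± 0.954 after vigabatrin (log2 fold change 0.18, edgeR adjusted p = 0.588). Its groups did not overlap, as for 1.48% of all tested genes. Rad21, a cohesin subunit, had 170 ± 2.05 and 175 ± 2.54 CPM (0.04, adjusted p = 0.793). Wapl, listed as Wapal, which releases cohesin from chromatin, had 148 ± 19.4 and 131 ± 5.17 CPM (-0.18, adjusted p = 0.666), and Tet3, another oxidase of methylated cytosine, had 415 ± 16.9 and 396 ± 32.6 CPM (-0.07, adjusted p = 0.843).

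Signalling partners and proteins that process protocadherins formed a list of 29, all tested, with 0 called, 15 higher and 14 lower and a median of 0.00. In this list 5 of 29 had an unadjusted p under 0.05, beside 7.36% of all tested genes. Nlgn1, a synaptic adhesion protein, had 16.2 ± 0.434 CPM in vehicle and 19.3 ± 0.795 after vigabatrin (log2 fold change 0.25, standard error 0.05, edgeR adjusted p = 0.269). All its vigabatrin libraries lay above all vehicle libraries, and 1.48% of all tested genes had groups without overlap. Marcks, an actin-binding substrate of protein kinase C, had 157 ± 8.82 and 177 ± 10.2 CPM (0.17, adjusted p = 0.501). Psenen and Psen2, subunits of the gamma-secretase that cleaves protocadherins, had log2 fold changes of -0.16 (adjusted p = 0.668) and -0.12 (adjusted p = 0.705).

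A list of non-clustered protocadherins, single genes elsewhere in the genome, held 12, of which 11 were tested and 0 called. Of these, 10 had higher values and 1 lower, with a median of 0.09, and the median was -0.11 with the range of title numbers as a term. An unadjusted p under 0.05 was found for 0 of 11, beside 7.36% of all tested genes. Pcdh10 had 63.3 ± 5.58 and 69.9 ± 6.68 CPM (edgeR adjusted p = 0.724), Pcdh1 had 76.2 ± 18.0 and 89.2 ± 5.94 CPM (adjusted p = 0.790), and Pcdh15, a tip-link protein also present in photoreceptors, had 87.8 ± 10.8 and 85.9 ± 4.17 CPM (adjusted p = 0.957). Per kb, Pcdh15 (9.84 CPM per kb), Pcdh10 (8.06) and Pcdh1 (15.3) each lay above the most abundant beta gene, Pcdhb17 (7.29). Pcdh7, Pcdh8 and Pcdh9 did so too. Pcdh11x, Pcdh12, Pcdh17, Pcdh18, Pcdh19 and Pcdh20 lay below it, from 0.036 (Pcdh12) to 3.21 (Pcdh17) CPM per kb.

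Other large cadherins were 15, of which 13 were tested, 0 called, 8 higher and 5 lower, with a median of 0.04. In this list 2 of 13 had an unadjusted p under 0.05, beside 7.36% of all tested genes. Celsr2, a planar polarity cadherin, went from 138 ± 6.98 to 154 ± 6.18 CPM (log2 fold change 0.15, edgeR adjusted p = 0.501) and Fat3, which shapes amacrine cell dendrites, from 60.3 ± 5.51 to 66.9 ± 5.42 CPM (0.15, adjusted p = 0.691). Cdhr3 had a log2 fold change of -0.33 (adjusted p = 0.666) and the photoreceptor cadherin Cdhr1 of -0.08 (adjusted p = 0.781).

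Other recognition molecules of retinal neurons were 38, all tested, with 0 called, 28 higher and 10 lower, and a median of 0.07. In this list 6 of 38 had an unadjusted p under 0.05, beside 7.36% of all tested genes. Flrt3, a transmembrane guidance protein, went from 12.0 ± 1.22 to 14.3 ± 0.859 CPM (0.25, edgeR adjusted p = 0.532). Plxna2, a semaphorin receptor, had a log2 fold change of -0.12 (adjusted p = 0.715), and Islr2 of -0.16 (adjusted p = 0.793). Megf10, which mediates spacing of starburst amacrine cells, had 28.4, 31.1, 28.0, 27.1 and 31.0 CPM in vehicle and 33.6, 32.1, 36.05, 34.8 and 33.8 CPM after vigabatrin, with no overlap, as for 1.48% of all tested genes (log2 fold change 0.23, standard error 0.05, edgeR adjusted p = 0.365).

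Of the 4 markers of starburst amacrine cells, in which gamma protocadherins are best known, 0 were called, where 0.00574% of all tested genes were. Their summed level (Chat, Slc18a3, Slc5a7 and Megf10) was 67.5 to 72.6 CPM in vehicle and 75.2 to 85.0 CPM after vigabatrin, without overlap, and all 4 markers were detected in every library. Only Megf10 of the 4 did not overlap between groups, and the other 3 together had 38.6 to 44.6 CPM in vehicle and 41.6 to 49.0 CPM after vigabatrin, which overlapped. Chat, which makes acetylcholine, had a log2 fold change of 0.19 (edgeR adjusted p = 0.569), its vesicular transporter Slc18a3 of 0.15 (adjusted p = 0.724), and the choline transporter Slc5a7 of 0.17 (adjusted p = 0.653). Unadjusted edgeR p-values were 0.0126 for Chat, 0.0859 for Slc18a3, 0.0387 for Slc5a7 and 0.00111 for Megf10. Of all tested genes, 7.36% had an unadjusted p under 0.05. The gamma row had a log2 fold change of 0.05 with an interval that ended at 0.15, and its difference from the markers was not tested. Amacrine markers as a whole ran from 1055 to 1103 CPM in vehicle and from 1084 to 1127 CPM after vigabatrin, and ganglion cell markers from 559 to 631 and from 587 to 670 CPM. The part of cell makeup in the members' values was not tested.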

How the data were processed

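The authors deposited raw read counts for each Ensembl gene. The submitters' processing notes name HTSeq 0.6.1, DESeq2, edgeR 3.16.5 and build mm10. The strand setting, aligner and annotation release were not given in the sources used here. The table held 1 count column that matches no sample, and it was left out. Low counts were removed with filterByExpr, libraries were scaled by TMM, and the groups were compared by the quasi-likelihood test of edgeR 4.0.16 (R 4.3.3), with no other term, Benjamini-Hochberg adjustment over 17435 genes and a threshold of 0.05. The fit was tested on simulated data.

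Members and gene lists were chosen with earlier results of these data known. Levels are CPM per kb of the deposited gene length, since the beta rows overlap no other row; the planned unshared length came from GENCODE M21, whose exons differ from the table's, and served as the alternative. Sums over members have no test. Members named in full were the 4 highest and 2 lowest levels per cluster and the 5 smallest p-values per direction, and from each related list the 2 smallest per direction. Alternatives covered normalization, filters, DESeq2 1.42.0, limma-voom (limma 3.58.1), the range of title numbers, and leaving out each library or the lens-rich ones. No sequence from this region is printed.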

Additional observations from a re-analysis of the deposited data

Results flagged for a closer look

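Of 50 sets of 5 libraries examined (24 members and the beta sum, in each group), 2 had 1 library far from the others, where about 2.5 would be flagged by chance at 1 in 20. Pcdhb1 was at 0.763 CPM in vigabatrin 2344, with the other 4 vigabatrin libraries between 0.497 and 0.558 CPM. Pcdhb5 was at 5.52 CPM in vigabatrin 2349, with the other 4 between 4.56 and 4.73 CPM.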

How the results depend on the processing

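No member was called under any alternative run, and only Pcdhb1 was not fitted under the stricter filter. Over all genes 84 passed with DESeq2 and 39 without vehicle 2345, beside 1 in the reported fit. When single libraries were left out, the alpha row ran from 0.021 to 0.070 and the gamma row from 0.023 to 0.078 on the log2 scale. The range of title numbers as a term sets vehicle 2345 alone against the vigabatrin libraries. With this term the beta median was -0.013 (0.036 to 0.079 when single libraries were left out) and Pcdhb22 was at -0.007. The median of the non-clustered protocadherins was then -0.114 and the signalling list median was 0.065. With library size alone, Pcdhb2 was at 0.005 and Pcdhb16 at 0.007. Pcdhb16 was at 0.060 with limma-voom and at 0.021 without the lens-rich libraries. Leaving out single libraries, Pcdhb1 ran from 0.276 to 0.511, Pcdhb21 from 0.087 to 0.218, Pcdhb4 from 0.101 to 0.243, Pcdhb9 ran from -0.069 to 0.024, Pcdhb22 from -0.030 to 0.050, Pcdhb2 from -0.060 to 0.075, Pcdhb7 from -0.128 to 0.014, Pcdhb12 from -0.070 to 0.018 and Pcdhb16 from -0.066 to 0.051, and the cause of the changes of sign was not tested. With GENCODE M21 lengths, levels were 2.59 CPM per kb for the alpha row, 6.54 for the gamma row, 5.12 for Pcdhb17, 2.29 for Pcdhb22, 1.18 for Pcdhb14 and 7.86 for Pcdhb12, a change that the lengths alone make. Without length correction the effective number of beta genes was 15.4. No paired analysis was possible because the title numbers of the groups do not match. Depth limits Pcdhb1, with at most 34 counts in a library.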
